A study of Mus musculus with 6 samples.

Results

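The 40 genes described here encode secreted chemokines and cytokines: 25 chemokine ligands, 5 members of the interleukin 1 family, 3 of the interleukin 6 family, the colony-stimulating factors Csf1, Csf2 and Csf3 with Il34, and Tnf, Il15 and Tslp. They were chosen by name as a group of ligands, and the rule uses no measured value, although earlier results of these data were known. Of the 40, 39 were read by at least 1 array probe whose RefSeq accession carried the gene's name (Cxcl11 had no such probe), out of 20018 genes named in this way on the array. Total RNA came from cultured mouse lung fibroblasts of 2 genotypes, Mmp19 knockout and wild type, with 3 cultures and 3 one-colour Agilent arrays each. Mmp19 encodes a matrix metalloproteinase. Every animal, the wild-type controls included, was labelled as a female of 11 weeks and had received 0.08 u of bleomycin through the trachea, a treatment that injures the lung and leads to fibrosis. Lung fibroblasts were isolated on day 21, grown in FBM medium and incubated for 72 hours. There was no group without bleomycin, and the labels give neither the strain nor the knockout allele, so the comparison is between the genotypes in cells from injured lungs only. The series text describes the 3 arrays of a group as separate experiments.

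Chemokines are small secreted proteins that steer the migration of white blood cells through G protein-coupled receptors on those cells. The CXC chemokines that bind Cxcr2 draw in neutrophils, the CC chemokines of the Ccl2 group draw in monocytes, and a set induced by interferon draws in T cells. Cytokines of the interleukin 1 and interleukin 6 families and the colony-stimulating factors act on the activation, survival and growth of immune and stromal cells. Fibroblasts are a known source of many of these ligands in injured tissue, and many of the genes are switched on through NF-kappaB, interferon-activated STAT factors, or both.

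Signals are given on a scaled log2 scale: log2 of the scanner's processed signal minus that array's 75th percentile, so that 0 is the signal that 75 percent of probes lie below. A probe entered the test when the scanner software had called it well above background on every array of either genotype. Of the probes, 41.9% to 53.4% were well above background per array, and no spot was saturated. Mmp19 itself was well above background on 0 of 3 knockout and 3 of 3 wild-type arrays. Its signal fell at least 5.33-fold without the gene (limma, Benjamini-Hochberg adjusted p = 0.016). Mmp19 entered the test only through the wild-type arrays, so a difference was a condition of its being tested. Xist is the RNA that silences an X chromosome in female cells. It was detected above background on 3 of 3 knockout and 0 of 3 wild-type arrays. The Y-linked genes Eif2s3y and Ddx3y were detected on all 6, although every animal was labelled female. Both Y-linked genes were lower on every knockout array than on every wild-type array. Eif2s3y read 2.19, -1.77 and 0.67 on the knockout arrays and 2.92, 4.18 and 3.62 on the wild-type arrays. The log2 changes, knockout minus wild type, were -3.21 for Eif2s3y and -2.47 for Ddx3y, and neither passed (limma adjusted p = 0.112 and 0.139). A difference in the sex of the cells between the groups cannot be told apart from genotype. Wild-type replicate 2 stood apart in its group: its correlation over probes was 0.940 with wild-type replicate 1 and 0.960 with wild-type replicate 3, against 0.984 between those arrays and 0.958 to 0.986 among the knockout arrays. Each result below that rests on it is therefore given with and without that array.

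Only 1 ligand gene, Il34, passed the test over all 6 arrays, and it fell in the knockout cells. Many chemokines were high in wild-type replicates 1 and 3 and at or below the knockout level in wild-type replicate 2, so their changes were large in size and did not pass. Of the 39 genes with a probe, 21 were tested, 18 of them well above background on all 6 arrays. At an adjusted p of 0.05 over all probes (limma, Benjamini-Hochberg), 0 of the 21 were higher and 1 was lower in the knockout, beside 4.8% of all 12470 tested genes in either direction, 3.3% higher and 1.49% lower. At an unadjusted p of 0.05 there were 6, which were Ccl8, Ccl9, Il18, Il11, Csf1 and Il34, beside 21.8% of all tested genes. The log2 change, knockout minus wild type, was below 0 in 14 and above 0 in 7, with a median of -1.05 beside 0.08 over all genes. Every knockout array lay above every wild-type array for 4 of them (Cxcl12, Ccl9, Il18 and Csf1) and below for 3 (Ccl8, Il11 and Il34), beside 21.2% and 9.82% of all genes. With 3 arrays against 3, an exact two-sided permutation test of 1 gene cannot go below 0.1.

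**Figure D1:**
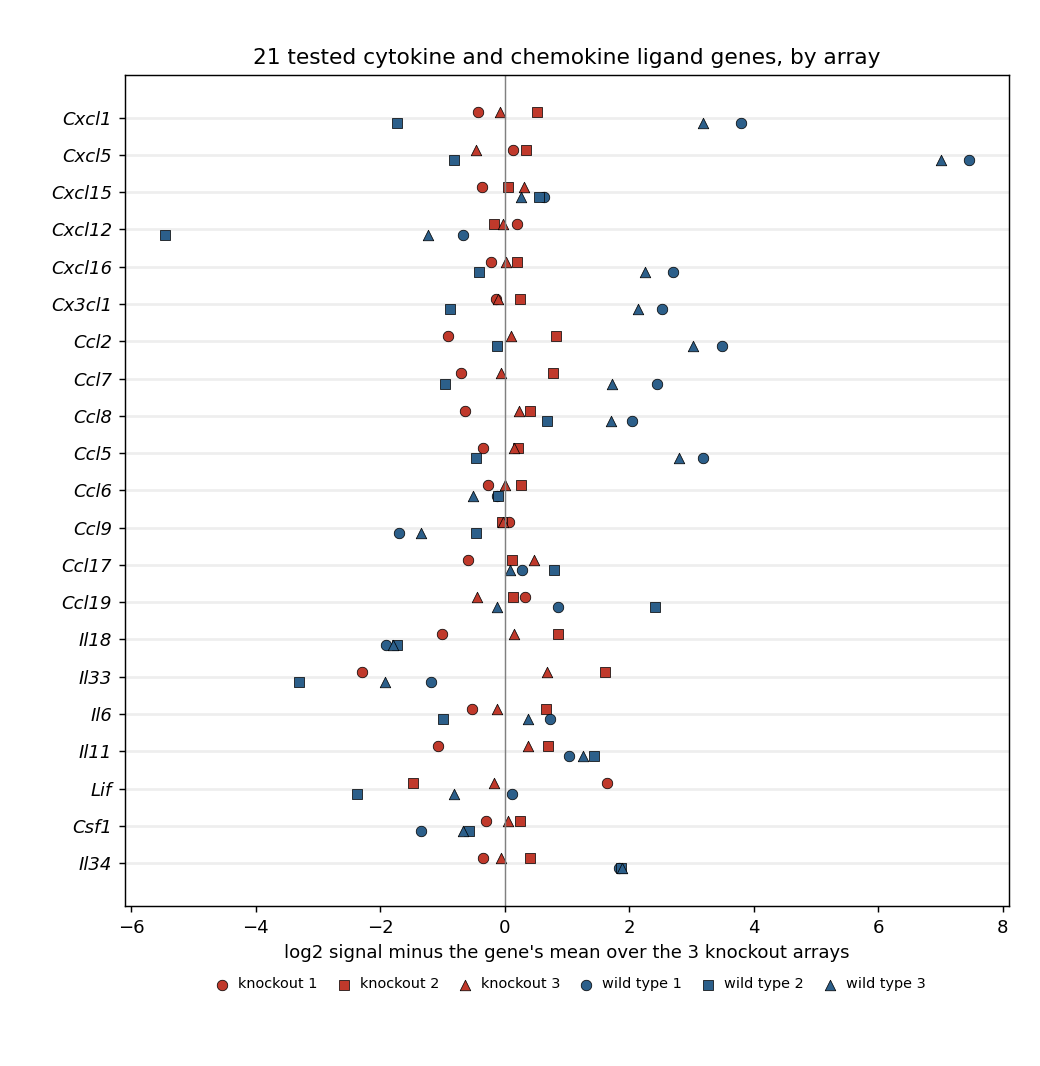
Signal of the 21 tested ligand genes on each array, as the log2 signal minus the gene's mean over the 3 knockout arrays (horizontal axis); red marks are knockout, blue marks wild type, and the shape gives the replicate number. Wild-type replicates 1 and 3 lie far to the right for Cxcl5 and Cxcl1 while wild-type replicate 2 lies to the left of all knockout arrays, and the 3 wild-type values of Il34 coincide.

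The genes lie in clusters, and the stretches of DNA before their start sites differ in the short motifs that they hold. In the GRCm38.p6 gene order, Ccl2, Ccl7 and Ccl11 are consecutive protein-coding genes on chromosome 11, as are Ccl5, Ccl9, Ccl6, Ccl3 and Ccl4 further along. Cxcl3, Cxcl15, Cxcl1 and Cxcl2 are consecutive on chromosome 5, where Cxcl5 also lies. RefSeq promoter windows (GRCm38.p6, 250 bases before to 50 after a start) matched 28 of the 40 genes by symbol. Searched on both strands, an NF-kappaB-type motif (GGG and TTTCC with any 2 bases between them) was found in 8 of the 28 (Cxcl1, Cxcl2, Cxcl3, Ccl9, Ccl20, Csf1, Il1rn and Il6) and in 1.89% of all 27025 genes with a window. An interferon response type motif (TTTC repeated after any 2 bases) was found in 3 (Cxcl10, Cxcl14 and Ccl19) and in 3.99% of all genes, and TATAAA, the core of the TATA box, in 13 and in 15.7%. TATAAA and its reverse complement can overlap, as they do in Ccl9. A match is a description of letters and not evidence of a bound factor. The windows of 5 genes are shown because these genes gave different patterns over the arrays: Cxcl1, Cxcl10 and Il1a were high in wild-type replicates 1 and 3, Ccl9 was higher on every knockout array, and Il6 overlapped between the groups. They read 5′ to 3′ on the gene's strand, with every match in capitals.
Cxcl1 (chr5:90890995-90891294, plus strand): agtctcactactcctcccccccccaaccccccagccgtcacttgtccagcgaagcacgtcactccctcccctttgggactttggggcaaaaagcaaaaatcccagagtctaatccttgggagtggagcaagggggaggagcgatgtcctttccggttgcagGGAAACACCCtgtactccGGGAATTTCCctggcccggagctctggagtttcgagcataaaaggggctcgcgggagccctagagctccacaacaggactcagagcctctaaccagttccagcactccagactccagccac
Cxcl10 (chr5:92348840-92349139, minus strand): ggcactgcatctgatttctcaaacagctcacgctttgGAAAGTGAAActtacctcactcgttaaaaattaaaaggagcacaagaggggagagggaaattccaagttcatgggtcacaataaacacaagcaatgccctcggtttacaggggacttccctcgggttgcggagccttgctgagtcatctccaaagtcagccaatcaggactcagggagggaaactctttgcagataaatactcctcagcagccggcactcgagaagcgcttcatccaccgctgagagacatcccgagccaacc
Il1a (chr2:129309923-129310222, minus strand): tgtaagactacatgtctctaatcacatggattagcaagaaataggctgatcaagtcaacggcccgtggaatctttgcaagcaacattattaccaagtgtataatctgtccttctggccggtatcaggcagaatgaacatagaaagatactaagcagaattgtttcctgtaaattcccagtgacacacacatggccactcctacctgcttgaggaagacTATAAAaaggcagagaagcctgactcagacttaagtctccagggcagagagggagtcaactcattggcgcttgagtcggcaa
Ccl9 (chr11:83578587-83578886, minus strand): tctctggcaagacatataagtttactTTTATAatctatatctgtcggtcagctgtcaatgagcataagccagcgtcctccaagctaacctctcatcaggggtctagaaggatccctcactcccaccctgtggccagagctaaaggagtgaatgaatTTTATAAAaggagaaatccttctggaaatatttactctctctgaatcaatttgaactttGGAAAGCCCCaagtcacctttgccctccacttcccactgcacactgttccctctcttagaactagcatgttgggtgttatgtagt
Il6 (chr5:30012864-30013163, plus strand): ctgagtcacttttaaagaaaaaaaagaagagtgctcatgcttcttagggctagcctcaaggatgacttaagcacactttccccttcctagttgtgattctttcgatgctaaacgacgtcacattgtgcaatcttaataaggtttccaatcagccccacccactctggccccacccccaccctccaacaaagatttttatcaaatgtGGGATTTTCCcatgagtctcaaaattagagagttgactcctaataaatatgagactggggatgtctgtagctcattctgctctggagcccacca
Counting from the start site, the window of Cxcl1 holds NF-kappaB-type matches at -89 to -80 and at -71 to -62. In Ccl9 the match lies at -35 to -26 and in Il6 at -44 to -35. Cxcl10 holds an interferon-type match at -213 to -204, and the TATAAA of Il1a lies from -32 to -27. Genes with the same NF-kappaB-type letters differed in their signals: Cxcl2, Cxcl3 and Ccl20 were well above background on no array.

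Il34 and Csf1 encode the ligands of the receptor Csf1r, which drives the survival and growth of macrophages. Il34 read -1.45, -0.70 and -1.17 on the knockout arrays (mean -1.10 ± 0.38, SD, n = 3) and 0.73, 0.76 and 0.77 on the wild-type arrays (0.75 ± 0.02, SD, n = 3). The groups did not overlap, and wild-type replicate 2 lay between the other wild-type arrays. The change was -1.86 ± 0.24 (log2, SE; limma, Benjamini-Hochberg adjusted p = 0.0143), and -1.86 ± 0.27 with adjusted p = 0.019 without wild-type replicate 2. Each slide carried 1 array of each genotype with the same replicate number. The difference within slides 1, 2 and 3 was -2.18, -1.46 and -1.94, and a fit that took slide as a block gave a limma adjusted p of 0.0496. Without knockout replicate 3 the limma adjusted p rose to 0.0923, and without wild-type replicate 3 to 0.0786, while the change stayed at -1.83 and -1.85.

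Csf1 differed the other way. Its brightest probe read 7.06, 7.60 and 7.42 on the knockout arrays and 6.02, 6.79 and 6.69 on the wild-type arrays. All knockout arrays lay above all wild-type arrays, and the change of 0.86 ± 0.28 did not pass (limma adjusted p = 0.146). The gene's 2 other tested probes, both designed on another RefSeq transcript, changed by 0.05 ± 0.23 and 0.12 ± 0.23, so the probes disagreed in size.

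Csf2 and Csf3, the growth factors of granulocytes and macrophages and of granulocytes alone, were not tested over all arrays because the scanner called them well above background on wild-type replicates 1 and 3 only. Csf3 read -4.45, -4.69 and -4.95 on the knockout arrays and 1.33, -5.27 and 0.43 on the wild-type arrays. Csf2 read -4.77, -5.87 and -5.98 against -2.12, -3.17 and -2.34. Both genes were bright on wild-type replicates 1 and 3, and their signals on the other 4 arrays, wild-type replicate 2 included, were not well above background. On wild-type replicate 2 Csf3 read below every knockout array, and Csf2 read above every knockout array. Because these signals were not well above background, no result is drawn from their order. Where no array of a group was well above background, a fold is given as a bound. It sets the bright group's mean against a level on each dim array. That level is the dimmest signal that still counted as well above background there, or the gene's own signal where that was higher. Arrays of the bright group that were not well above background entered the mean as read, so with them the figure is no strict bound. On this bound Csf3 was at least 5.88-fold lower in the knockout over all 3 wild-type arrays, of which 2 measured it, and Csf2 at least 2.27-fold lower. Leaving out wild-type replicate 2, the bounds were at least 24.4-fold and at least 2.82-fold, and both genes passed the limma test there (adjusted p = 0.00283 and 0.0127). Because these genes entered that test only through the wild-type arrays where they were bright, a difference was a condition of their being tested.

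Of the chemokines that draw in neutrophils, 3 were tested and 0 passed over all arrays (0 at an unadjusted p of 0.05), and 1 of them, Cxcl5, had the largest change among the tested ligands. Cxcl5, a ligand of Cxcr2, read -1.70, -1.48 and -2.29 on the knockout arrays and 5.63, -2.63 and 5.18 on the wild-type arrays. Cxcl1, another ligand of Cxcr2, read 0.47, 1.42 and 0.82 against 4.71, -0.83 and 4.09. In both, wild-type replicates 1 and 3 were far above the other arrays and wild-type replicate 2 was the lowest of all 6, so the groups overlapped. Over all arrays the change was -4.55 ± 2.06 for Cxcl5 and -1.75 ± 1.36 for Cxcl1 (limma adjusted p = 0.264 and 0.502). With wild-type replicate 2 left out it was -7.23 ± 0.31 and -3.49 ± 0.36 (limma adjusted p = 0.00204 and 0.00852), both past the threshold. Within slide 2 the sign was the opposite of that in slides 1 and 3: Cxcl5 gave -7.33, 1.15 and -7.47 in slides 1, 2 and 3, and Cxcl1 gave -4.24, 2.25 and -3.27.

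The other members of the group were dim. Cxcl15, a chemokine known from lung epithelium, changed by -0.48 ± 0.25 (limma adjusted p = 0.313), with overlapping groups. Cxcl2 and Cxcl3, from the same stretch of chromosome 5 as Cxcl1, were well above background on no array.

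Cxcl16 and Cx3cl1 are made as membrane-bound proteins and released as soluble chemokines by shedding. Cxcl16 read -0.49, -0.07 and -0.25 on the knockout arrays and 2.43, -0.68 and 1.98 on the wild-type arrays. Cx3cl1, also called fractalkine, read 1.38, 1.77 and 1.43 against 4.05, 0.64 and 3.67. Both showed the order of Cxcl1, with wild-type replicates 1 and 3 high and wild-type replicate 2 the lowest of all. The changes were -1.52 ± 0.77 and -1.26 ± 0.85 over all arrays (limma adjusted p = 0.31 and 0.437), and -2.48 ± 0.25 and -2.33 ± 0.24 without wild-type replicate 2 (0.00822 and 0.00886).

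Cxcl12, the ligand of Cxcr4 and a product of stromal cells, was bright in all cultures except wild-type replicate 2. It read 6.93, 6.56 and 6.69 on the knockout arrays and 6.06, 1.27 and 5.49 on the wild-type arrays. Every knockout array was above every wild-type array, and the change was 2.45 ± 1.17 (limma adjusted p = 0.284). Over the other 5 arrays the change was 0.95 ± 0.26, which also did not pass (adjusted p = 0.0866). The second probe, designed on another transcript, read 4.50, 4.89 and 4.58 against 5.71, 0.84 and 5.06. Here wild-type replicates 1 and 3 were above the knockout arrays, so the sign of the Cxcl12 difference without wild-type replicate 2 depended on the probe.

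Cxcl14, a chemokine expressed by epithelial cells and fibroblasts, was well above background on knockout replicates 2 and 3 and on wild-type replicate 3. It read -2.87, -1.01 and -1.77 on the knockout arrays and -3.85, -3.40 and -3.63 on the wild-type arrays. Each knockout reading was thus above each wild-type reading. Those on knockout replicate 1 and wild-type replicates 1 and 2 were not well above background, so no result is drawn from their order. Cxcl14 was tested only without knockout replicate 1, where the fitted change was 2.24 ± 0.32 (limma adjusted p = 0.0367). It entered that test through the knockout arrays where it was bright, so a difference was again a condition of the test. Cxcl13, a chemokine for B cells, was well above background on no array.

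Cxcl9, Cxcl10 and Cxcl11 are induced by interferon and bind Cxcr3. Cxcl10 read -3.78, -2.60 and -3.84 on the knockout arrays and 0.08, -3.18 and -0.57 on the wild-type arrays. It was well above background on 1 knockout array and on wild-type replicates 1 and 3, and again wild-type replicate 2 was among the knockout values. With that array left out the gene was tested, through the bright wild-type arrays, and its fitted change was -3.16 ± 0.45 (limma adjusted p = 0.017). Being tested there depended on a high wild-type signal, and 2 of the 3 knockout signals were not well above background. Cxcl9 was well above background on no array with either of its probes.

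Ccl2, Ccl7 and Ccl8, the chemokines that attract monocytes and share a cluster on chromosome 11, were well above background on all 6 arrays. Ccl2, the main ligand of Ccr2, read 5.35, 7.08 and 6.35 on the knockout arrays and 9.74, 6.14 and 9.28 on the wild-type arrays. Ccl7 read 3.13, 4.60 and 3.77 against 6.27, 2.87 and 5.55, and Ccl8 read 0.99, 2.02 and 1.85 against 3.66, 2.30 and 3.33. In all of them wild-type replicates 1 and 3 were above every other array. Wild-type replicate 2 lay inside the knockout range for Ccl2, below it for Ccl7 and above it for Ccl8. The changes were -2.13 ± 0.96, -1.06 ± 0.87 and -1.48 ± 0.43, and none passed (limma adjusted p = 0.263, 0.525 and 0.113). Over the 5 arrays without wild-type replicate 2 they were -3.25 ± 0.51, -2.08 ± 0.47 and -1.88 ± 0.36, of which Ccl2 and Ccl8 passed and Ccl7 did not (adjusted p = 0.0219, 0.0558 and 0.036). Ccl11, eotaxin, which draws in eosinophils and lies next to Ccl7, was well above background only on knockout replicate 2 and wild-type replicate 3.

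Ccl5 and Ccl9, neighbours on chromosome 11, differed in opposite directions. Ccl5, which draws in T cells and monocytes, read -2.21, -1.65 and -1.71 on the knockout arrays and 1.33, -2.32 and 0.95 on the wild-type arrays, the same order as Cxcl1. Ccl9 read -1.23, -1.35 and -1.33 against -3.00, -1.77 and -2.65, with all knockout arrays above all wild-type arrays. The change was -1.84 ± 0.91 for Ccl5 and 1.17 ± 0.33 for Ccl9 (limma adjusted p = 0.3 and 0.104). Without wild-type replicate 2 both passed, with -2.99 ± 0.27 for Ccl5 and 1.52 ± 0.21 for Ccl9 (limma adjusted p = 0.00645 and 0.0165). Within slides 1, 2 and 3 the difference of Ccl9 was 1.77, 0.42 and 1.32, and that of Ccl5 was -3.53, 0.67 and -2.66.

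None of the remaining CC chemokines passed, and some were dim. Ccl6, which follows Ccl9 on the chromosome, changed by 0.25 ± 0.23, and Ccl17, a ligand of Ccr4, by -0.39 ± 0.34 (limma adjusted p = 0.585 and 0.548). Ccl19, a ligand of Ccr7, changed by -1.05 ± 0.62 by its brighter probe, on which wild-type replicate 2 was the highest array at 0.04, and by -0.05 ± 0.29 by its second tested probe. Without wild-type replicate 2 another tested probe became the brighter one, with a change of -0.24. Ccl4 was well above background on knockout replicate 2 only, and Ccl3 and Ccl20 on no array.

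**Figure D2:**
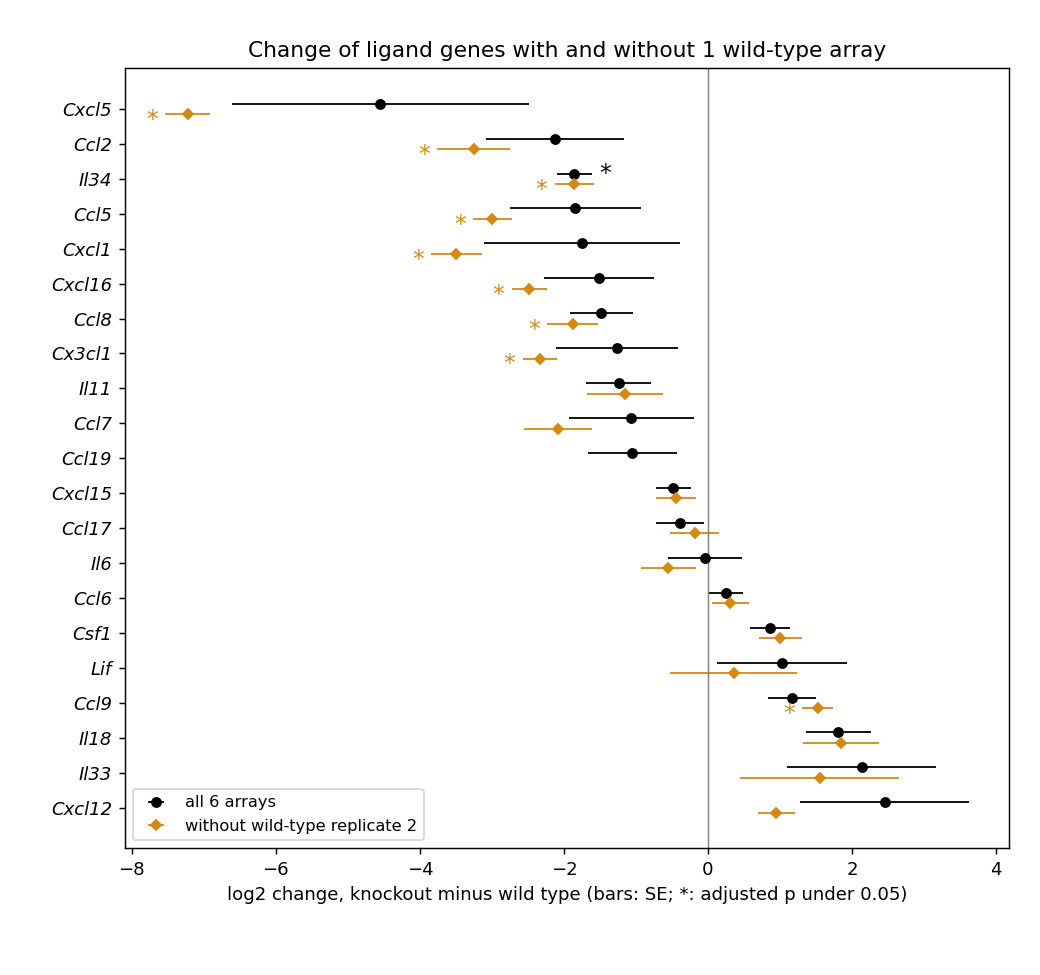
Log2 change, knockout minus wild type, of the 21 tested ligand genes with its SE, over all 6 arrays (black circles) and without wild-type replicate 2 (orange diamonds); an asterisk marks a limma adjusted p under 0.05. Over all arrays Il34 alone carries one, and without that array 9 of the 21 do; Ccl19 has no orange mark because another probe represented it there.

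The interleukin 1 family holds alarm signals of damaged cells and their antagonist. Il1a read -5.20, -6.36 and -6.12 on the knockout arrays and 0.05, -5.33 and -0.62 on the wild-type arrays, and was well above background on wild-type replicates 1 and 3 only. It was at least 3.39-fold lower in the knockout over all wild-type arrays, of which 2 measured it, and at least 10.9-fold lower without wild-type replicate 2. It could be tested only with that array left out (limma adjusted p = 0.00413), through the arrays where it was bright, so that p is no independent support. Il1rn, the antagonist of the interleukin 1 receptor, was well above background on wild-type replicate 1 alone, where it read -0.20. The bound over all wild-type arrays, of which 1 measured it, was at least 1.33-fold lower. Without wild-type replicate 2 it was at least 2.54-fold, with wild-type replicate 3 still not well above background. Il1b was well above background on no array.

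Il18 and Il33, the other members of the family, had higher means in the knockout. Il18, an inducer of interferon gamma, read 0.15, 2.02 and 1.32 on the knockout arrays and -0.74, -0.57 and -0.63 on the wild-type arrays. The groups did not overlap, the wild-type arrays were close together, and knockout replicate 1 was the nearest to them. The change of 1.81 ± 0.45 did not pass (limma adjusted p = 0.0764), and without knockout replicate 1 it was 2.32 and passed (0.0277). Il33, a nuclear alarmin, read -2.19, 1.72 and 0.80 against -1.07, -3.19 and -1.81. Knockout replicate 1 was below wild-type replicates 1 and 3, so the groups overlapped, and the change of 2.13 ± 1.03 did not pass (limma adjusted p = 0.29). Without wild-type replicate 2, its lowest array, the change was 1.55 ± 1.11 (limma adjusted p = 0.434).

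The interleukin 6 family signals through the shared receptor chain Il6st (gp130). Il6, its founding member, read 4.15, 5.34 and 4.56 on the knockout arrays and 5.41, 3.69 and 5.06 on the wild-type arrays. The groups overlapped widely and the change was -0.04 ± 0.51 (limma adjusted p = 0.979). Its sign turned positive without replicate 1 or replicate 3 of either genotype. Il11, a profibrotic member, read -0.68, 1.08 and 0.75 against 1.42, 1.81 and 1.64; every knockout array was below every wild-type array, and the change of -1.24 ± 0.46 did not pass (limma adjusted p = 0.183). Lif read 3.98, 0.86 and 2.16 against 2.44, -0.05 and 1.51. Its signal was highest in replicate 1 and lowest in replicate 2 of both groups, and the knockout array was above the wild-type array within every slide. The change of 1.03 ± 0.90 did not pass (limma adjusted p = 0.553), nor did it in the fit with slide as a block (0.128). It was 0.36 without wild-type replicate 2 and ran from 0.21 without knockout replicate 1 to 1.77 without knockout replicate 2 when 1 array was left out.

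Of the ligands with other roles, Tnf was well above background on no array. Il15, a growth factor of T and NK cells, was well above background on knockout replicates 2 and 3 and wild-type replicate 3, with overlapping signals. Tslp, an epithelial alarmin, was well above background on wild-type replicates 1 and 3 only. The bound over all 3 wild-type arrays, of which 2 measured it, was at least 1.26-fold lower in the knockout. It was at least 1.44-fold without wild-type replicate 2. Within slide 2, where neither array measured Tslp, the difference was 0.08. Without wild-type replicate 2 its change of -1.17 ± 0.50 did not pass (limma adjusted p = 0.211).

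**Figure D3:**
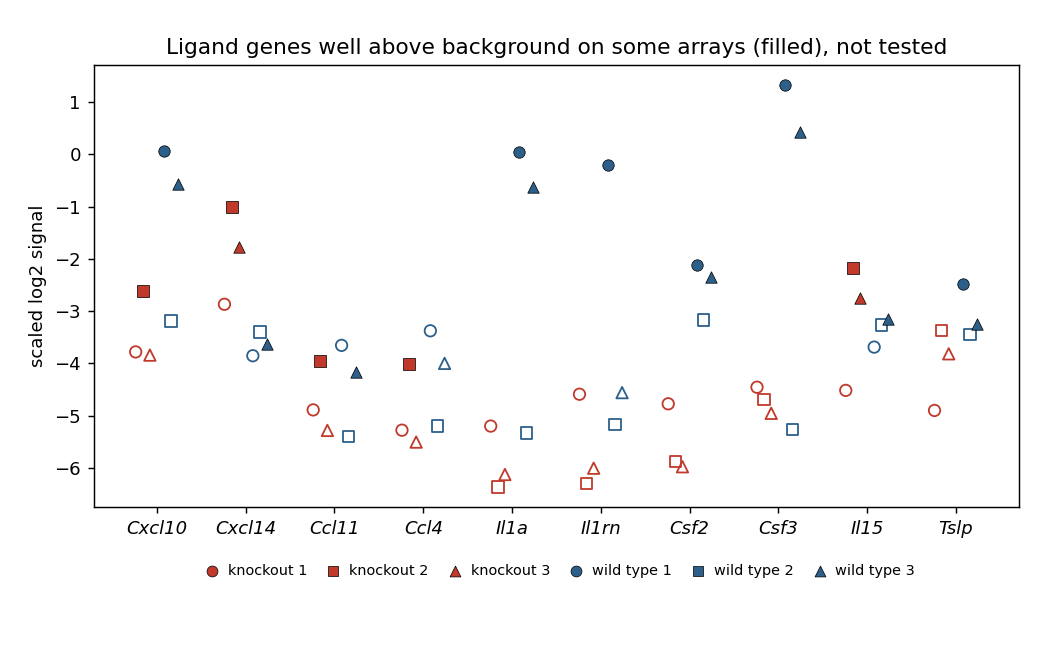
Scaled log2 signal of the 10 ligand genes that were well above background on some arrays but on all 3 of neither group; filled marks are well above background, open marks are not, and colour and shape give group and replicate. Filled marks of Csf3, Il1a and Csf2 belong to wild-type replicates 1 and 3 alone, and those of Cxcl14 to knockout replicates 2 and 3 and wild-type replicate 3.

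The order with wild-type replicates 1 and 3 above the other 4 arrays was shared by 8 of the 21 tested ligands (38.1%): Cxcl1, Cxcl5, Cxcl16, Cx3cl1, Ccl2, Ccl7, Ccl8 and Ccl5. Over all genes it held for 18.5%. It was not particular to the ligands. Of the lists read below, it held for 41.2% of tested NF-kappaB and toll-like receptor signalling genes, 48.4% of interferon genes and 31.6% of receptors. Wild-type replicate 2 lay below both other wild-type arrays in 57.1% of the ligands and in 54.6% of all genes. These orders were counted after the values had been seen and are given as a description, with no test. Leaving out wild-type replicate 2 and choosing the tested probes anew, 26 ligands were tested, of which 12 were lower and 1, Ccl9, was higher in the knockout, beside 4.47% and 3.66% of all 13148 genes tested there (8.13% in either direction). Of these 13, 9 were among the 21 tested on all arrays. The other 4 (Cxcl10, Il1a, Csf2 and Csf3) came from 5 genes, with Tslp, that became testable only through wild-type replicates 1 and 3, where they were bright, so their calls are no support for a shift of the group. Without both arrays of slide 2, 26 ligands were tested, of which 13 were lower and 1 was higher. The shares of all genes were 4.09% and 2.53% (6.63% in either direction), and Ccl7 was the addition. The 13 again held Cxcl10, Il1a, Csf2 and Csf3, testable only through the bright wild-type arrays, so these calls are no support either. With slide as a block over all arrays, Il34 was still the only call, beside 1.8% of all genes in either direction, 1.17% higher and 0.626% lower.

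Within slide 1 the median difference of the 21 ligands, knockout minus wild type, was -1.26, with 16 of 21 below 0. In slide 3 it was -0.50 with 12 below 0, and in slide 2 it was 0.81 with 6 below 0. Over all genes the medians were -0.01 in slide 1, 0.33 in slide 2 and -0.03 in slide 3. Ccl2, Ccl7, Ccl8, Cxcl16 and Cx3cl1 gave differences from -4.39 to -1.48 in slides 1 and 3, and of these only Ccl8, at -0.28, was below 0 in slide 2.

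**Figure D4:**
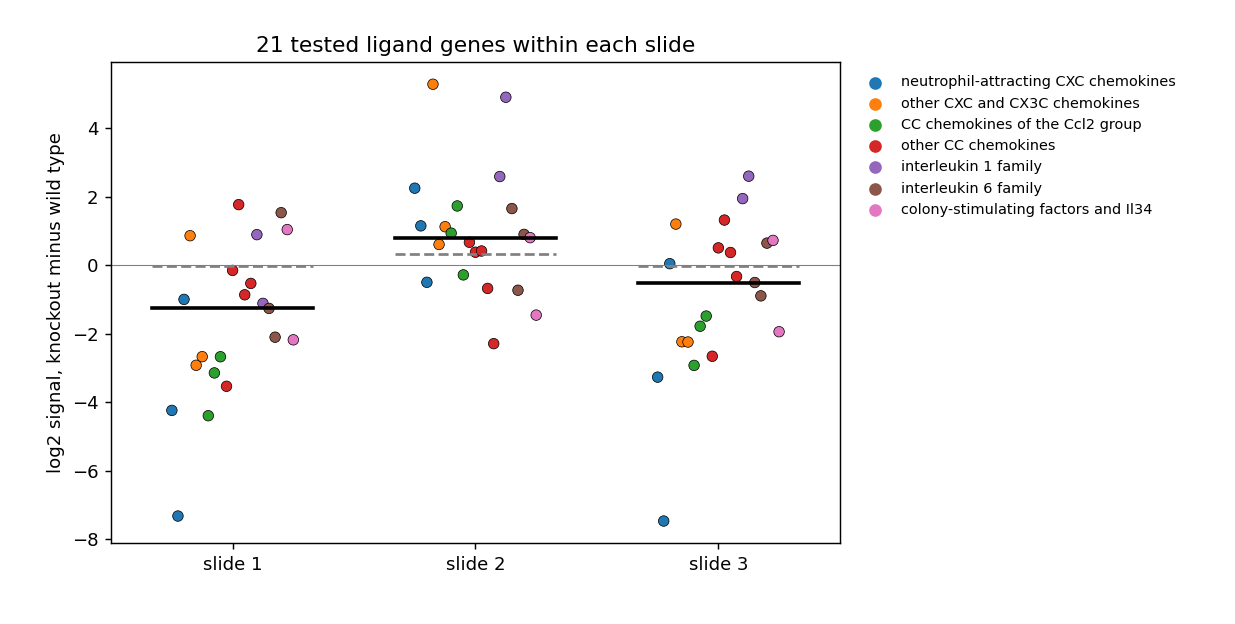
Difference in log2 signal between the 2 genotypes on each slide, knockout minus wild type, for the 21 tested ligand genes, coloured by class; the black line is their median and the dashed line the median over all genes. The median lies at -1.26 in slide 1, 0.81 in slide 2 and -0.50 in slide 3.

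The receptors of these ligands and the pathways around them were read from 4 lists. Of 39 receptors of cytokines and chemokines 19 were tested, and 1 rose and 1 fell, beside the 3.3% and 1.49% of all genes. Il6st, the shared receptor chain of Il6, Il11 and Lif, read 3.64, 3.97 and 4.0 on the knockout arrays and 2.07, 1.33 and 2.17 on the wild-type arrays. Its change of 2.01 ± 0.28 passed (limma adjusted p = 0.0175) but not with slide as a block (0.0586). Cxcr6, the receptor of Cxcl16, reached that mark on 0 of 3 knockout arrays and was at least 9.07-fold lower there (limma adjusted p = 0.0381; 0.0856 in the fit with slide as a block). Unlike its ligand, it was brightest on wild-type replicate 2, at 0.87, against -2.31 and -0.19 on wild-type replicates 1 and 3.

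Among 34 tested genes of NF-kappaB and toll-like receptor signalling, which induce many of these ligands, 0 passed over all arrays, beside 4.8% of all genes. At an unadjusted p of 0.05 there were 8 of 34, beside 21.8% of all genes. The smallest adjusted p values were those of the adaptor Myd88 (change 0.99 ± 0.25, limma adjusted p = 0.0804) and of Tlr4, the receptor of bacterial lipopolysaccharide (0.71 ± 0.19, 0.0919). Without wild-type replicate 2, 3 of 34 were lower (the inhibitor Nfkbia, Tnip1 and Tlr2), beside 4.47% of all genes. Without both arrays of slide 2, 6 of 34 were lower, beside 4.09%: the same genes with Nfkb1, Tnfaip3 and Zc3h12a. Of 31 tested genes of interferon signalling and response, 0 rose and 4 fell, beside 1.49% of all genes lower: Usp18 (-2.65 ± 0.27, limma adjusted p = 0.00641), Oas1a (-2.21 ± 0.41, 0.0361), Ifi44 (-2.02 ± 0.40, 0.0412) and Isg15 (-1.15 ± 0.19, 0.026). Usp18 and Ifi44 passed in the fit with slide as a block too, and without wild-type replicate 2, 9 of 33 were lower, beside 4.47% of all genes. At an unadjusted p of 0.05 there were 14 of 31, beside 21.8%, and every knockout array lay below every wild-type array for 13, beside 9.82%. Their median change was -0.39 beside 0.08 over all genes. Of 5 tested genes that cut or shed ligands, Dpp4, a peptidase that trims the ends of chemokines, including Cxcl12, rose. It read -0.92, -1.50 and -1.57 on the knockout arrays and was well above background on 0 of 3 wild-type arrays. In the knockout its signal was at least 5.31-fold higher (limma adjusted p = 0.0114, and 0.0301 with slide as a block). Dpp4 entered the test only through the knockout arrays where it was bright, so here too a difference was a condition of the test.

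White blood cells also make these ligands, so their markers were read on the same arrays. For comparison, 3.3% of all tested genes were higher and 1.49% lower in the knockout, and 21.8% had an unadjusted p under 0.05. The shares higher and lower were 3.66% and 4.47% without wild-type replicate 2, and 1.17% and 0.626% with slide as a block. Without both arrays of slide 2 they were 2.53% and 4.09%. Fibroblast markers were well above background on all arrays for 11 of 12 genes, and their summed signal, in multiples of each array's 75th percentile, was 2127 to 2165 in the knockout and 1009 to 1917 in the wild type. Col1a1 and Col1a2 were higher in the knockout (limma adjusted p = 0.0307 and 0.0415), but missed the threshold when slide was a block (0.0845 and 0.0944). Of 17 macrophage and myeloid markers 8 were tested and 0 passed (2 at an unadjusted p of 0.05). Well above background on all 6 arrays were 7 of the 17, and Itgax, Fcgr3, Laptm5 and Mrc1 on no array. Their summed signal was 49.4 to 112 in the knockout and 59.7 to 72.8 in the wild type. The counts on all 6 arrays were 2 of 11 granulocyte and mast cell, 5 of 10 T and NK cell and 5 of 8 endothelial markers. For lung epithelial and mesothelial markers they were 6 of 11 and 3 of 6. Leaving out wild-type replicate 2, Lyz2 was higher in the knockout, and of the fibroblast markers 5 were higher and Dcn was lower. Granulocyte and mast cell markers summed to 5.20 to 6.49 against 6.47 to 9.22, with 4 of 11 tested, 0 past the threshold over all arrays (2 at an unadjusted p of 0.05) and Cxcr2, Retnlg, Kit, Cpa3, Mcpt4 and Fcer1a on no array. Without wild-type replicate 2, the setting in which Cxcl1 and Cxcl5 passed, 5 were tested and S100a8 and Mpo were lower in the knockout, and without both arrays of slide 2 S100a8 was lower. T and NK cell markers summed to 7.39 to 9.91 against 6.95 to 9.53, endothelial markers to 3.71 to 5.43 against 4.06 to 5.73, and lung epithelial markers to 56.1 to 62.4 against 40.4 to 48.8, with 0 past the threshold in each (0, 0 and 1 at an unadjusted p of 0.05); the epithelial keratin Krt18 was higher in the knockout when slide was a block. Of 4 B cell markers, Cd79b alone was tested and it was lower in the knockout (limma adjusted p = 0.0241, and 0.0813 when slide was a block). Cd79b was well above background on 1 of 3 knockout and 3 of 3 wild-type arrays, so it too entered the test through its brighter group. Of the mesothelial markers, 5 of 6 were higher in the knockout (4 when slide was a block, and 4 without both arrays of slide 2). They summed to 34.5 to 85.2 against 2.01 to 9.33. Upk3b and Lrrn4 were well above background on 3 of 3 knockout and 2 of 3 wild-type arrays. These markers entered the test through the knockout arrays where they were bright, so their calls are no independent support. The part of these cell types in the ligand results was not tested. In cultures measured as bulk RNA, fewer cells of a type and less RNA per cell cannot be told apart.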

How the data were processed

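Per the labels' protocols, Cy3-labelled cRNA was made from 0.5 µg of total RNA of each culture and hybridised to one-colour arrays. The authors deposited 1 scanner table per array; per the file headers, Feature Extraction version 10.7.3.1 gave each spot a background-subtracted processed intensity, median spot and background intensities, and flags. In the submitters' processing notes the software is Agilent Feature Extraction version 9.1, and the difference is not settled here. The authors also deposited log2 values of 35844 probes (column medians 5.51 to 5.76), used only as an alternative; columns correlated at 0.996 or more with the array of the same sample and at 0.989 or less with the others, and its centring is unknown.

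Control spots and outlier flags were left out and repeated spots averaged, giving 55681 probes. Each array's 75th percentile of log2 processed intensity was subtracted. Probes were named by RefSeq accession through an annotation of GRCm38.p6 (26413 probes, 47.4%). The test took the 24214 probes that were well above background on every array of either group, with lmFit and eBayes of limma 3.58.1 (R 4.3.3); p-values were two-sided and adjusted over all probes (Benjamini-Hochberg), with a threshold of 0.05. Of the probes 1124 passed, 697 of them higher (62.0%; 51.9% with the percentile taken over probes well above background on all arrays). For each gene the tested probe of highest mean was used. Each slide held both arrays of 1 replicate number, scanned together, so the slide block is the replicate block; same-numbered arrays' deviations from their group means gave correlations of 0.0958, -0.0206 and 0.21, so arrays were not treated as pairs. When an array was left out, scaling and the choice of probes were redone. The number of arrays limits the precision. The procedure was tested on simulated data.

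The members and all lists were chosen with earlier results of these data known. Arrays were named per ligand where it passed, passed with slide as a block or was among the 12 tested members of largest change, and the values of further ligands were added after they had been seen; pathway lists gave up to 4 genes past the threshold or 2 of smallest p, and marker lists counts and up to 2 genes past it. Alternatives were normexp background correction (on median signals, offset 50), quantile, cyclic loess and median scaling, the percentile over detected probes, 3 other filters on dim probes, the authors' values, a trended robust prior, array weights, slide as a block, other probe rules and leaving out each array. Leaving out both arrays of slide 2 was chosen after seeing the data.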

Additional observations from a re-analysis of the deposited data

How the results depend on the processing

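The fall of Il34 kept its direction under all alternatives run (adjusted p from 0.000738 to 0.0923) and missed the threshold with no filter on dim probes (0.0882) and without knockout replicate 3 or wild-type replicate 3. Over all arrays the median change of the tested ligands was below 0 under every alternative; leaving out 1 array it ran from -1.51 to -0.30, and it was -0.48 with the tested probe of smallest change per gene. The number of ligands higher in the knockout was 4 with array weights, 1 without both arrays of slide 2 and from 0 to 2 without 1 array. The number lower was 0 with no filter on dim probes, 2 with a filter of at least 1 array well above background (Csf2 was added), 9 with array weights, 13 without both arrays of slide 2 and from 0 to 12 without 1 array, the highest without wild-type replicate 2. The counts of 13 and 12 both hold Cxcl10, Il1a, Csf2 and Csf3, which became testable only through the bright wild-type arrays. Array weights were fitted gene by gene because the REML fit did not converge, and ran from 0.292 for wild-type replicate 2 to 4.86 for knockout replicate 3. Of all probes, 633 passed with normexp, 113 with no filter, 650 with a filter of all 6 arrays, 345 with a filter of at least 1 array, 5068 with array weights and 385 with slide (the replicate block) as a block, and from 108 to 1913 without 1 array. The pathway lists held 7 genes past the threshold, and 3 with normexp, 1 with no filter, 3 with a filter of at least 1 array, 29 with array weights, 3 with slide (the replicate block) as a block, 15 without both arrays of slide 2 and from 0 to 16 without 1 array. Ligands with changes near 0 turned sign: Ccl17 was 0.13 with array weights, and Il6 was 0.016 with median scaling and ran from -0.55 to 0.31 when 1 array was left out, positive without replicate 1 or 3 of either group. The cause of these shifts was not tested. Of the 18 ligands with a probe that were not tested over all arrays, 8 were well above background on no array and 10 on some arrays but on all 3 of neither group.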
